A study of Sus scrofa with 5 samples.

Results

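The renin-angiotensin and endothelin genes of a pig kidney transplanted into a human recipient were followed in 5 bulk RNA sequencing libraries. The 7 genes were taken by name: AGT, ACE and AGTR1 of the renin-angiotensin system, EDN1, EDNRA and EDNRB of the endothelin system, and NOS3, the endothelial nitric oxide synthase gene. All 7 were among the 15235 symbols of the count table for the pig genome, and all 7 passed the filter on low counts, as did 12620 genes in all. The control arm was untransplanted kidney at 0 h (control replicates 1 and 2), and the xenograft arm was 1 biopsy each at 12, 24 and 48 h. All biopsies came from the second transplantation case and so from a single graft, and whether the controls came from separate animals was not given. The pig's genotype, strain and age and the recipient's treatment are not stated in the labels. The p-values therefore measure the spread between these libraries, which may be partly technical. In the comparison of the arms the biopsies of all times were pooled, so that spread also holds any change with time. The labels call the material dissociated kidney cells, while their protocol describes homogenised core biopsies. No sequence of these genes or their promoters was analysed here.

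Angiotensinogen, the product of AGT, is the precursor of angiotensin I, which angiotensin converting enzyme, the product of ACE, turns into angiotensin II. Angiotensin II acts mainly through the type 1 receptor encoded by AGTR1, which constricts vessels and promotes sodium retention. Several aminopeptidases and endopeptidases degrade angiotensin peptides or convert them to other forms. Endothelin-1, encoded by EDN1, is a strong vasoconstrictor when it binds the receptor encoded by EDNRA on smooth muscle. The receptor encoded by EDNRB is found on endothelium and collecting duct, where it clears endothelin and is linked to nitric oxide release and sodium excretion. In kidney, ACE lies on the brush border of the proximal tubule as well as on endothelium, and AGT is made in the proximal tubule in addition to the liver.

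Pig-table totals ranged from 56129926 to 71108823 counts, and 1 CPM (read counts relative to library size, scaled here by the trimmed mean of M-values, TMM) stood for 52.1 to 72.8 counts. The 13 mitochondrially encoded genes held 21.9% and 33.4% of counts in the controls and from 11.8% to 14.5% in the biopsies. Kidney markers were present in every library, with a summed level of 10 proximal tubule markers of at least 7657 CPM and a UMOD level of at least 2544 CPM. Because these are bulk samples, fewer cells of a type and less RNA per cell cannot be told apart. The control libraries differed by more than sampling noise (chi-square per degree of freedom 218 over 12327 genes) and were counted as 2 replicates. That chi-square used counts scaled by library totals, not by TMM, and included the mitochondrially encoded genes. It therefore partly measures the difference in mitochondrial share between the controls.

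AGT had the largest fold change of the 7 genes. AGT had 67 and 46 counts in the controls and 1355, 2421 and 1287 at 12, 24 and 48 h, or 1.12 and 0.883 CPM against 18.7, 33.3 and 19.2 CPM. Every biopsy lay far above both controls, and the 24 h biopsy was the highest. AGT rose 23.6-fold, or by 4.56 ± 0.36 (SE) on the log2 scale, over 3 biopsies and 2 controls (adjusted p = 0.000607, edgeR quasi-likelihood test, Benjamini-Hochberg). The 12 and 48 h levels could not be told apart by counting error, with 95% Poisson intervals of 17.7 to 19.7 and 18.1 to 20.2 CPM. The rise came while the summed proximal tubule markers fell from 24412 and 25620 CPM in the controls to between 7657 and 9819 CPM in the biopsies, and all 10 of those markers were lower. AGT counts per 100 counts of those markers went from 0.00459 and 0.00345 to 0.236, 0.339 and 0.250. Liver markers, whose tissue is the main source of circulating angiotensinogen, were near 0 for ALB (at most 0.301 CPM). The liver list's sum was 47.4 and 49.2 CPM in the controls and 91.2 to 135 CPM in the biopsies, with 1 of its 4 tested genes higher and 1 lower. APOA1 alone made up 30.6 and 34.8 CPM of that sum in the controls and 87.1 to 131 CPM in the biopsies.

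ACE fell by 1.22 on the log2 scale (SE 0.15, adjusted p = 0.00158 by edgeR's quasi-likelihood test), that is to 2.33-fold lower. Its level was 333 and 322 CPM in the controls and 134, 162 and 124 CPM at 12, 24 and 48 h. The groups did not overlap, and the controls differed by much less than the distance to any biopsy. The share of all tested genes whose groups separate in this way is not given here, for ACE or for the other genes described. Per 100 endothelial marker counts ACE stood at 59.4 and 72.2 counts in the controls, against 12.7 to 15.2 in the 3 biopsies. Per 100 proximal tubule marker counts it was higher in each biopsy than in either control, at 1.36 and 1.26 in the controls, against 1.69, 1.65 and 1.62 in the 3 biopsies. The part of either cell type in the ACE result was not tested.

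AGTR1 had 35.8 and 26.0 CPM in the controls and 50.3, 73.8 and 97.4 CPM at 12, 24 and 48 h. The level was higher at each later biopsy, and the 95% Poisson intervals of the 3 biopsies did not overlap. Nor did those of the 2 controls, at 34.3 to 37.3 and 24.6 to 27.4 CPM. AGTR1 rose 2.39-fold (log2 1.26 ± 0.30, adjusted p = 0.0189 by edgeR's quasi-likelihood test). This call was lost without control replicate 1 (adjusted p = 0.0664), control replicate 2 (0.150) or the 24 h biopsy (0.0503).

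**Figure D1:**
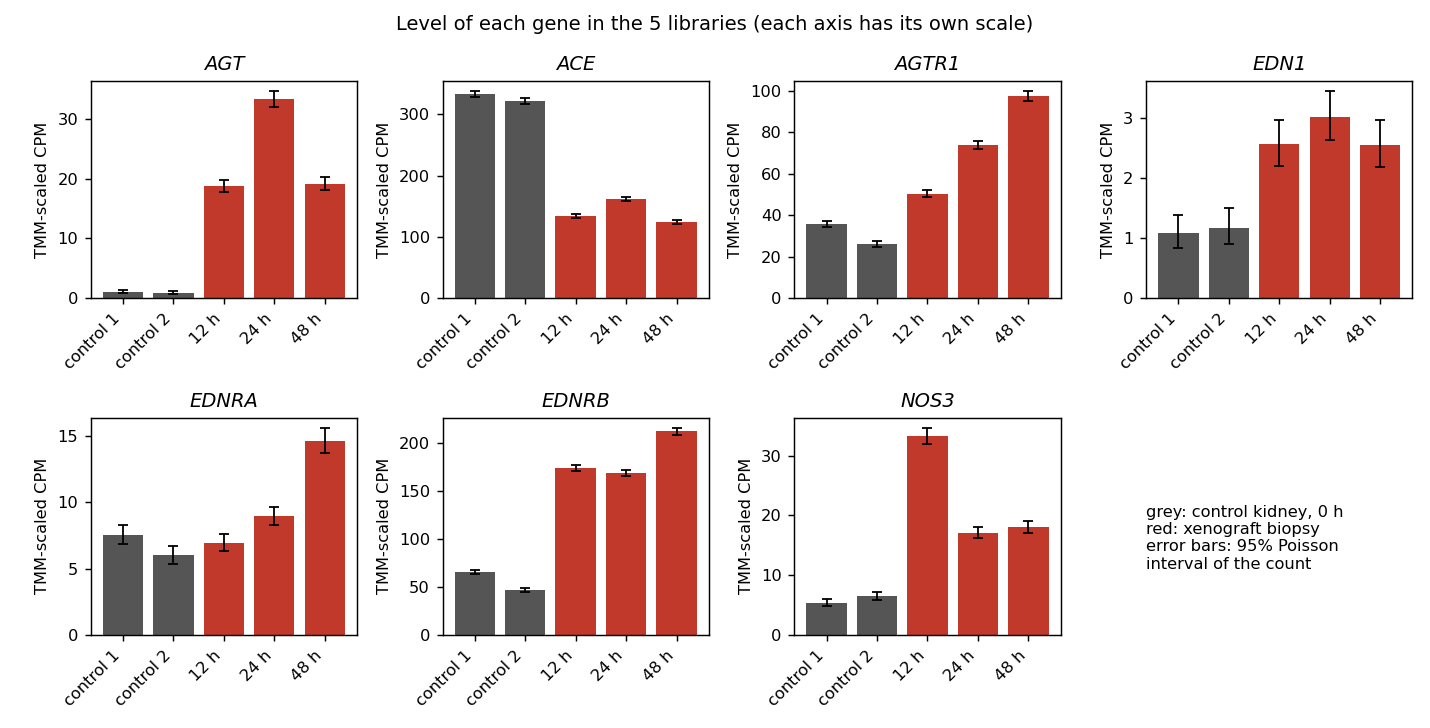
TMM-scaled CPM of the 7 genes in each library, with 95% Poisson intervals of the counts as error bars, grey for the 2 controls and red for the biopsies at 12, 24 and 48 h. AGT, AGTR1, EDN1, EDNRB and NOS3 are higher in every biopsy than in either control, ACE is lower, and EDNRA at 12 h (6.95 CPM) lies between the controls. The share of all tested genes that separate in this way is not given here.

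EDN1, the ligand gene, was read from few counts in every library. It had 65 and 61 counts in the controls, against 185, 219 and 171 counts in the 3 biopsies, or 1.09 and 1.17 CPM against 2.56, 3.01 and 2.55 CPM. The 3 biopsies were alike within counting error, and all lay above the controls. EDN1 rose 2.39-fold (log2 1.26 ± 0.28, adjusted p = 0.0129 by edgeR's quasi-likelihood test), a call lost without control replicate 1 (adjusted p = 0.117) or 2 (0.115). Per 100 endothelial marker counts EDN1 stood at 0.194 and 0.262 in the controls, against 0.266, 0.282 and 0.260 in the 3 biopsies, so the control and biopsy ranges overlapped. Per 100 collecting duct marker counts it was 0.109 and 0.127 in the controls, against 0.273, 0.267 and 0.256 in the 3 biopsies, with no overlap. In the controls most of the collecting duct sum was ATP6V1B1, which did not pass. The part of either cell type in the EDN1 result was not tested.

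The endothelin receptor genes are described in turn. EDNRB had 65.3 and 47.1 CPM in the controls and 174, 169 and 212 CPM at 12, 24 and 48 h. All biopsies lay far above the higher control, and those at 12 and 24 h had overlapping Poisson intervals. EDNRB rose 3.29-fold (log2 1.72 ± 0.19, adjusted p = 0.00118 by edgeR's quasi-likelihood test). EDNRA had 7.53 and 5.99 CPM in the controls, against 6.95, 8.94 and 14.6 CPM in the 3 biopsies. The 12 h biopsy lay between the controls, and the 48 h biopsy was the highest. EDNRA did not pass in the comparison of all biopsies with the controls (log2 0.59 ± 0.33, adjusted p = 0.195), although it did without the 12 h biopsy (log2 0.80, adjusted p = 0.0494). The ratio of EDNRB to EDNRA counts, which does not depend on library scaling, was 8.67 and 7.86 in the controls and 25.1, 18.9 and 14.5 at 12, 24 and 48 h. That ratio was therefore higher in every biopsy than in either control, with the widest gap at 12 h, and it was not tested further.

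NOS3, whose product makes vasodilating nitric oxide in endothelium, was highest at 12 h. Its level was 5.37 and 6.45 CPM in the controls and 33.3, 17.1 and 18.1 CPM at 12, 24 and 48 h. The later biopsies had overlapping Poisson intervals and stayed above both controls. NOS3 rose 3.86-fold (log2 1.95 ± 0.34, adjusted p = 0.00606 by edgeR's quasi-likelihood test). Without control replicate 1 or 2 the adjusted p was 0.0633 or 0.0594, so that call was lost in both fits.

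Of the 7 genes, 5 rose and 1 fell in the xenograft comparison, beside a background of 18.5% of all tested genes called higher and 19.0% called lower. The median log2 fold change was 1.26 over the 7 genes and 0.03 over all tested genes. The 7 genes were chosen with earlier results of these data known, so these values are no test of the pathway as a set. With control replicate 1 or 2 left out, AGT, EDNRB and ACE alone kept their calls. Fewer genes were also called over the whole table in those fits, so the shares above do not apply to them. The same holds for the lists below wherever a control was left out. Without the 24 h biopsy 4 of the 7 rose, beside 1852 of 12527 tested genes called higher.

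Levels of marker genes moved with several of these results. Endothelial markers summed to 560 and 446 CPM in the controls, against 960, 1065 and 978 CPM in the 3 biopsies, with 6 of 12 higher and 0 lower (3 and 2 higher without control replicate 1 or 2). Its members differed: PECAM1 (3.68-fold) and CDH5 (3.22-fold) rose about as much as EDNRB, while KDR had a log2 fold change of -0.14 and did not pass. NOS3 per 100 endothelial marker counts was 0.960 and 1.45 in the controls, against 3.47, 1.61 and 1.85 in the 3 biopsies, so that all biopsies were above both controls, the 24 h one narrowly. EDNRB per 100 endothelial marker counts was 11.7 and 10.6 in the controls, against 18.1, 15.9 and 21.7 in the 3 biopsies, higher in each. Markers of smooth muscle, pericytes and mesangium, together called mural markers here, summed to 724 and 725 CPM in the controls and 838, 988 and 1323 CPM at 12, 24 and 48 h, with 6 of 10 higher (1 on leaving out control replicate 2, and 3 on leaving out the 24 h biopsy). EDNRA per 100 mural marker counts was 1.04 and 0.826 in the controls, against 0.830, 0.905 and 1.11 in the 3 biopsies, so the groups overlapped. AGTR1 per 100 mural marker counts was 4.94 and 3.58 in the controls, against 6.01, 7.47 and 7.36 in the 3 biopsies, with no overlap. MYL9, at 296 and 378 CPM in the controls and 216 to 349 CPM in the biopsies, was the largest part of the control mural sums. MYL9 did not pass (log2 -0.27). Nor did RGS5 (log2 -0.71), at 51.9 and 53.2 CPM in the controls and 19.1, 21.9 and 55.5 CPM at 12, 24 and 48 h. ITGA8 (log2 0.02) and ACTA2 (log2 0.99) did not pass either, and ITGA8 at 12 h (4.64 CPM) was below both controls (16.2 and 8.54 CPM). Of the 6 mural markers that rose, DES (4.18-fold) and TAGLN (2.66-fold) rose more than AGTR1 (2.39-fold), and the others less. Collecting duct markers summed to between 923 and 1001 CPM in the controls, against a range of 936 to 1129 CPM in the 3 biopsies, with 4 of 8 higher (1 on leaving out either control). ATP6V1B1, at 725 and 642 CPM in the controls and 369 to 562 CPM in the biopsies, made up most of the control sums and did not pass, while AQP3 (2.44-fold) and SLC4A1 (2.57-fold) rose about as much as EDN1. Fibroblast markers stood at 1308 and 945 CPM in untransplanted kidney and at 2172, 4056 and 6950 CPM at 12, 24 and 48 h, in the same order as AGTR1 and EDNRA, with 5 of 6 higher (1 and 0 on leaving out control replicate 1 or 2, and 3 on leaving out the 24 h biopsy). Leukocyte markers stood at 398 and 448 CPM and then at 783, 883 and 1032 CPM, with 4 of 6 higher and 1 lower. CD79A held 356 and 403 CPM of the control sums and 532 to 703 CPM of the biopsy sums. The macrophage gene CD163 rose 16.2-fold, the T cell gene CD3E was 2.76-fold lower, and PTPRC did not pass (log2 -0.29). Podocyte markers summed to 300 and 245 CPM, then to 105, 121 and 158 CPM, with 4 of 5 lower and 1 higher (2 and 0 on leaving out either control). Markers of thick ascending limb and distal tubule summed to 3306 and 3114 CPM, then to 5533, 5642 and 3940 CPM, mostly UMOD, with 3 of 5 higher and 1 lower (1 and 0 on leaving out either control). The part of cell composition in these results was not tested.

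**Figure D2:**
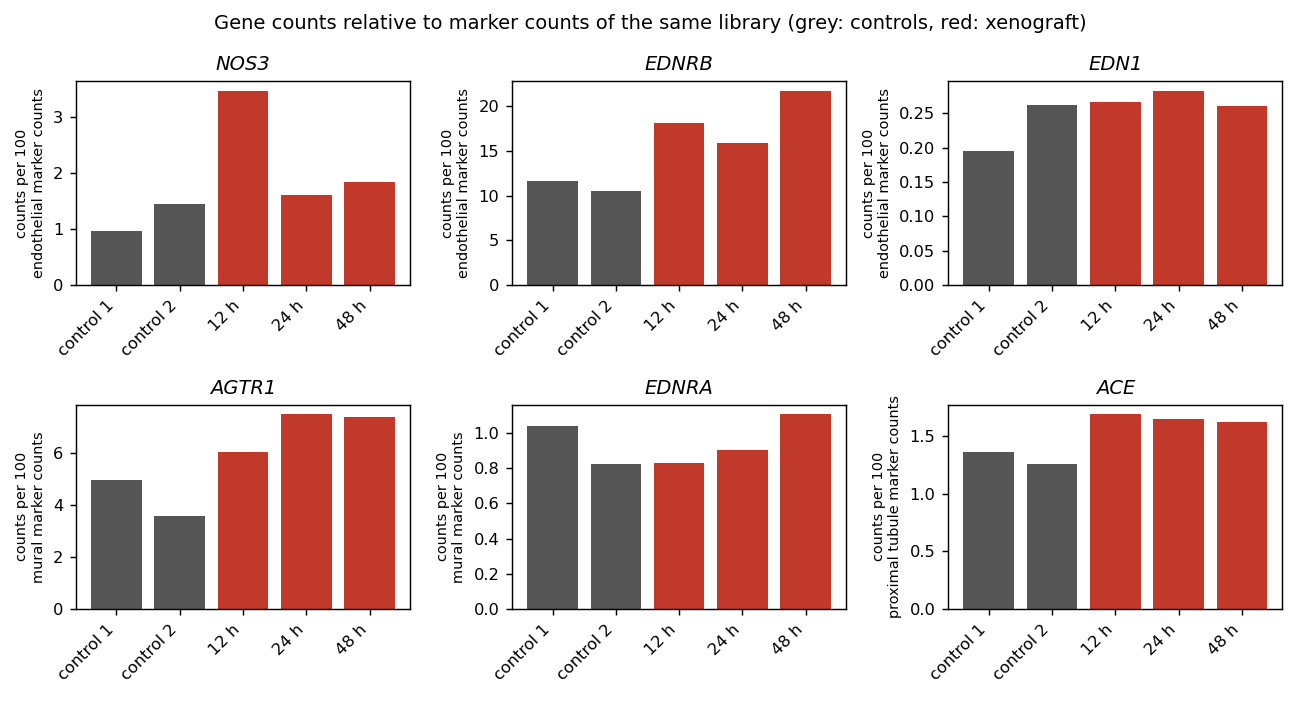
Counts of 6 genes per 100 counts of a marker list in the same library, grey for controls and red for biopsies: endothelial markers for NOS3, EDNRB and EDN1, mural markers for AGTR1 and EDNRA, and proximal tubule markers for ACE. EDNRB and AGTR1 stay above both controls in every biopsy, while the values of EDN1 and EDNRA overlap between the groups.

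Change within the graft was measured as a slope across the biopsies, from 12 to 48 h. None of the 7 genes passed after adjustment by edgeR's quasi-likelihood test (0 higher and 0 lower, against 3.34% of all genes higher and 0.983% lower). An unadjusted p under 0.05 was found for 3 of the 7. Over all 12620 tested genes 1474 rising and 945 falling slopes had one. DESeq2 called 2 of the 7, and over 14149 genes it called 580 higher and 268 lower. EDNRA had a slope of 1.64-fold per 24 h (log2 0.71 ± 0.17, adjusted p = 0.0518) and AGTR1 one of 1.51-fold per 24 h (log2 0.60 ± 0.16, adjusted p = 0.0876). These were the 2 genes that passed with DESeq2, with adjusted p = 0.0121 and 0.0324. NOS3 had a slope of -0.51 ± 0.21 on the log2 scale (adjusted p = 0.247), with its high 12 h value and similar later values. AGT (-0.13), ACE (-0.12), EDN1 (-0.04) and EDNRB (0.21) had smaller log2 slopes, with adjusted p from 0.517 to 0.949. A straight slope does not describe AGT, which was highest in the middle biopsy: its log2 slope was 1.66 without the 48 h biopsy and -0.80 without the 12 h biopsy, each then the difference between 2 single libraries.

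Each biopsy was also set against the controls, with the same controls in every comparison. With 1 library per time there is no replicate of a biopsy: the spread came from the control pair alone (1 residual degree of freedom), and more genes were called than in the comparison of the arms. The calls are therefore given as a description, without p-values from edgeR. The AGT fold was 18.6 at 12 h, 33.0 at 24 h and 19.0 at 48 h, and the ACE fold 2.44, 2.02 and 2.63 lower. AGTR1 was 1.63-, 2.39- and 3.15-fold higher and EDNRB 3.10-, 3.01- and 3.78-fold higher at the 3 times. EDN1 was 2.26-, 2.66- and 2.26-fold higher and NOS3 5.63-, 2.90- and 3.06-fold higher. The EDNRA fold was 1.03, 1.32 and 2.16, and EDNRA passed at 48 h alone. Without control replicate 2 the 12 h log2 fold change of EDNRA was -0.12. At 12 h 5 of the 7 genes were called higher and 1 lower, at 24 h again 5 and 1, and at 48 h 6 and 1. Across all genes 28.5%, 24.2% and 26.8% were called higher at the 3 times and 28.2%, 23.3% and 24.7% lower. EDN1 was called at 24 h but not at 12 or 48 h with DESeq2 (adjusted p = 0.0745 and 0.0838).

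The remaining renin-angiotensin genes were taken from a list of 14, of which 11 were in the pig table and tested. In the comparison of all biopsies with the controls 4 of these 11 fell and 0 rose (0 also with DESeq2, and none of the higher ones had an unadjusted p under 0.05), with a median log2 fold change of -0.34. The shares over all tested genes were 19.0% lower and 18.5% higher. On leaving out control replicate 2 the number that fell was 2. ATP6AP2, which encodes an accessory protein of the vacuolar proton pump, had a log2 fold change of -0.24 ± 0.16 and did not pass (adjusted p = 0.265).

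Among the angiotensin-degrading peptidases of the tubular brush border, ENPEP (aminopeptidase A) was 2.69-fold lower, MME (neprilysin) 2.59-fold lower and ANPEP (aminopeptidase N) 2.11-fold lower, with adjusted p from 0.00154 to 0.00577 by edgeR's quasi-likelihood test. Leaving out control replicate 2 took ANPEP to an adjusted p of 0.0694. ENPEP held 36.2%, 41.4% and 33.7% of its control mean at 12, 24 and 48 h, MME 38.6%, 47.1% and 30.1% and ANPEP 50.2%, 54.3% and 37.8%. ACE held 41.0%, 49.5% and 38.0% by the same measure, and the summed proximal tubule markers 31.7%, 39.2% and 30.6%. ACE and these peptidase genes were each at their highest biopsy level at 24 h and at their lowest at 48 h, as were the summed markers; the part of the tubule in these results was not tested. MAS1, encoding a receptor for angiotensin 1-7, was rare, with 40 and 30 counts in the controls, against 15, 17 and 13 in the 3 biopsies. It was 2.93-fold lower (adjusted p = 0.0166), a call lost without control replicate 1 (0.134) or 2 (0.110).

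PRCP, a lysosomal carboxypeptidase gene that can also act on angiotensin II, followed another course. Its level was 123 and 118 CPM in the controls and 39.6, 67.4 and 105 CPM at 12, 24 and 48 h. It was lowest at 12 h and near the controls at 48 h, with a rise of 1.85-fold per 24 h (log2 0.89 ± 0.14, adjusted p = 0.0104 by edgeR's quasi-likelihood test). Over all biopsies it did not pass (log2 -0.77 ± 0.37, adjusted p = 0.149), though it did without the 48 h biopsy (log2 -1.17, adjusted p = 0.00991). The peptidase genes LNPEP, PREP, NLN and THOP1 had log2 fold changes between 0.02 and 0.22 and did not pass (adjusted p from 0.174 to 0.913). AGTR2, the type 2 receptor gene, had at most 14 counts in any library and did not pass (adjusted p = 0.694).

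**Figure D3:**
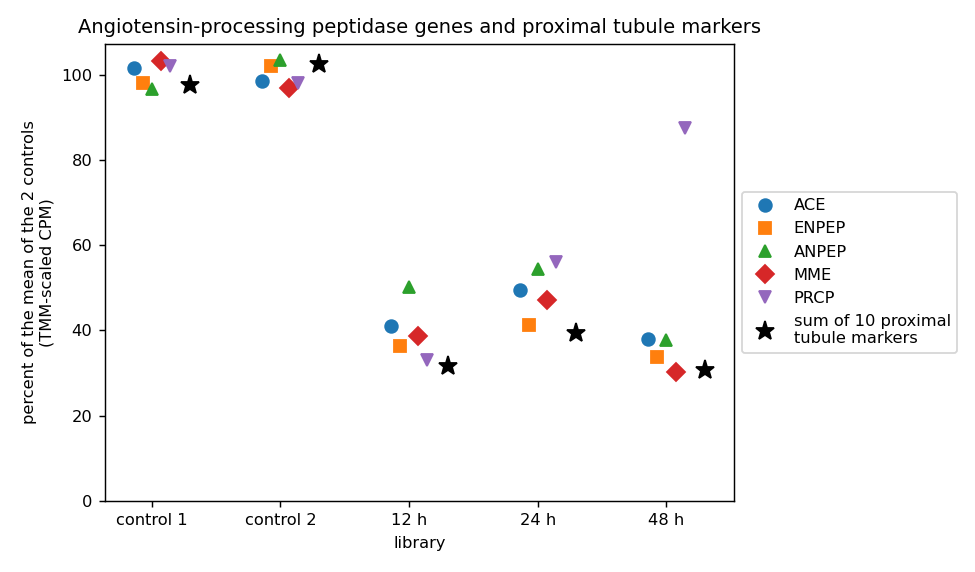
Levels of 5 angiotensin-processing peptidase genes and of the summed 10 proximal tubule markers in each library, as percent of the mean of the 2 controls (TMM-scaled CPM). ACE sits at 38.0% to 49.5% in the biopsies, and PRCP climbs from 33.0% at 12 h to 87.4% at 48 h.

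The other endothelin genes in the pig table were EDN2 and ECE1, out of 4 listed. ECE1, whose product releases endothelin-1 from its precursor, had 88.2 and 72.6 CPM in the controls, against 83.1, 102 and 125 CPM in the 3 biopsies. The 12 h biopsy lay between the controls, and ECE1 did not pass (log2 0.36 ± 0.19, adjusted p = 0.174). Leaving out the 12 h biopsy made it pass (log2 0.50, adjusted p = 0.0369). EDN2 had from 14 to 30 counts in each library and did not pass (log2 -0.22 ± 0.46, adjusted p = 0.733). By edgeR's quasi-likelihood test 0 of these 2 genes were called in either direction, 0 had an unadjusted p under 0.05, and DESeq2 called 0.

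Of 16 genes listed around nitric oxide, 15 were tested, of which 4 rose and 2 fell, with a median log2 fold change of 0.25. Over all tested genes 18.5% were called higher and 19.0% lower, so these counts are no result about the list. CAV1, encoding caveolin-1, which binds and restrains endothelial nitric oxide synthase, rose 9.07-fold (log2 3.18 ± 0.21, adjusted p = 0.000284 by edgeR's quasi-likelihood test). It had 4.07 and 3.28 CPM in the controls, against 32.3, 39.5 and 28.4 CPM in the 3 biopsies, all far above the controls. GUCY1A1 and GUCY1B1, the subunit genes of the nitric oxide receptor soluble guanylate cyclase, rose 1.99-fold and 1.95-fold (adjusted p = 0.00731 and 0.00284). Leaving out control replicate 2 took GUCY1A1 to an adjusted p of 0.0626. PDE5A, whose product degrades cyclic GMP, rose 1.37-fold (adjusted p = 0.0360), a call lost without any of control replicate 1, control replicate 2, the 24 h biopsy or the 48 h biopsy (adjusted p from 0.0547 to 0.247).

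The genes that fell in this list were ASS1 and DDAH1, both abundant in the proximal tubule. ASS1, an arginine synthesis gene, was 2.69-fold lower (adjusted p = 0.00419 by edgeR's quasi-likelihood test, 0.0530 without control replicate 2). DDAH1, whose product breaks down an inhibitor of nitric oxide synthase, was 2.47-fold lower (adjusted p = 0.00117). The inducible and neuronal synthase genes NOS2 and NOS1 had log2 fold changes of 0.19 ± 0.14 and 0.55 ± 0.48 and did not pass (adjusted p = 0.330 and 0.389). NOS2 was at 10.3 CPM in both controls and 12.0, 11.4 and 11.9 CPM in the biopsies. Without control replicate 2, 2 genes of this list rose and 1 fell.

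**Figure D4:**
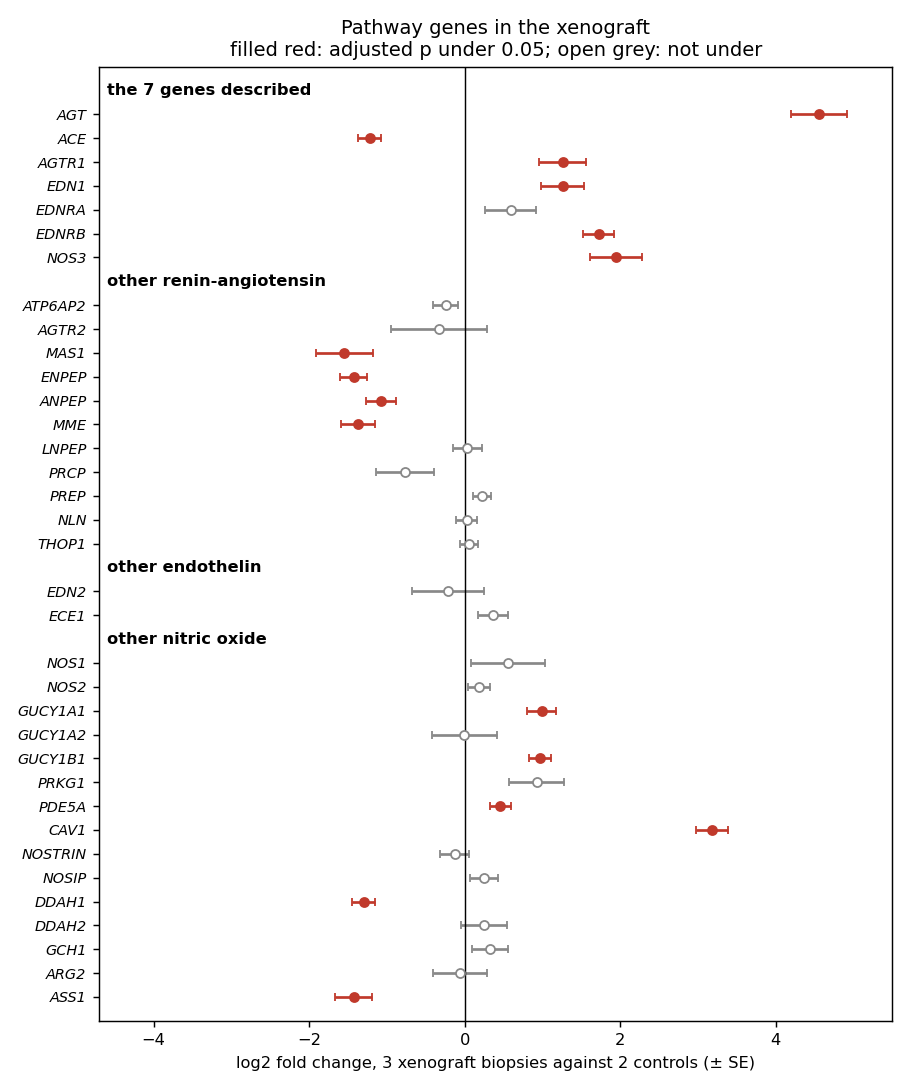
Log2 fold change of 3 xenograft biopsies against 2 controls, with SE, for the 7 genes and for the tested genes of the renin-angiotensin, endothelin and nitric oxide lists; filled red points passed at an adjusted p under 0.05 and open grey points did not. AGT lies farthest to the right at 4.56 and MAS1 farthest to the left at -1.55.

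Downstream of angiotensin II lies aldosterone, which acts on the distal nephron through the mineralocorticoid receptor. Of 8 genes listed for this response, 3 rose and 0 fell, with a median log2 fold change of 0.22, beside 18.5% higher and 19.0% lower over all tested genes. SGK1, a kinase gene induced by steroid hormones and cell stress, had 338 and 317 CPM in the controls, against 686, 579 and 525 CPM in the 3 biopsies and rose 1.82-fold (adjusted p = 0.00822 by edgeR's quasi-likelihood test). SCNN1A, encoding the alpha subunit of the epithelial sodium channel, rose 2.16-fold (adjusted p = 0.00548), and TSC22D3, a glucocorticoid-induced gene, 1.61-fold (adjusted p = 0.0116). The beta and gamma subunit genes SCNN1B and SCNN1G had log2 fold changes of 0.23 ± 0.19 and 0.21 ± 0.19 and did not pass (adjusted p = 0.375 and 0.400), nor did the receptor gene NR3C2 (log2 -0.15 ± 0.14, adjusted p = 0.443). Without control replicate 1 or 2, 0 of the 8 passed in each fit, with adjusted p from 0.0625 to 0.131 for the 3 that had risen.

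Other vasoactive systems were covered by a list of 15 kinin, natriuretic peptide and prostaglandin genes, of which 13 were tested, 4 rose and 2 fell (median log2 fold change 0.11), beside 18.5% higher and 19.0% lower over all tested genes. PTGIS, the prostacyclin synthase gene, rose 4.65-fold (log2 2.22 ± 0.18, adjusted p = 0.000574 by edgeR's quasi-likelihood test), from 15.4 and 13.4 CPM to 56.8, 65.5 and 78.8 CPM. CORIN, encoding a protease that activates natriuretic peptide, was 6.45-fold lower (log2 -2.69 ± 0.41, adjusted p = 0.00323), with 83 and 62 counts in the controls, against 17, 9 and 16 in the 3 biopsies. BDKRB1 (2.18-fold higher), PTGS1 (2.07-fold), NPR1 (1.68-fold) and PTGS2 (3.20-fold lower) passed with all 5 libraries, with adjusted p from 0.0138 to 0.0441, but not without control replicate 1 or 2 (adjusted p from 0.0717 to 0.240). With either control left out, 1 gene rose and 1 fell. Within the graft, NPR3, the natriuretic peptide clearance receptor gene, rose 1.77-fold per 24 h (adjusted p = 0.0108, but 0.268 without the 48 h biopsy), from 14.1 CPM at 12 h to 18.0 and 33.1 CPM, against 36.0 and 30.2 CPM in the controls.

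The genes whose profiles were most like those of the 7 were found by the root mean square difference of centred log2 CPM over the 5 libraries, a description with no test. SLC22A2, the organic cation transporter gene, was nearest to ACE (0.03), at 402 and 393 CPM in the controls, against 159, 201 and 155 CPM in the 3 biopsies, followed by ENPP2 and FAM110C (0.04 and 0.05). ACTG2, an enteric smooth muscle actin gene, was nearest to AGT (0.24), at 0.285 and 0.192 CPM against 4.41, 5.51 and 4.59 CPM, followed by the chemokine gene CXCL11 and the scavenger receptor gene CD163 (0.35 and 0.37). AGTR1 was nearest to RNASE1, MBOAT1 and the collagen gene COL5A1 (0.08 to 0.09), EDNRA to DNAH9, CBFA2T3 and OAS1 (0.06 to 0.07), and EDNRB to RNF39, FGF10 and RNF17 (0.04 to 0.07). Near EDN1 lay ABCG2 and GPC1 (0.05 and 0.07), and NOS3 to HBB, CCR1 and CTSS (0.10 to 0.11).

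Counts of the same 7 symbols in the human-genome table were compared with the pig table, since whether each read could count towards both genomes was not given. The controls, which hold no recipient tissue by their labels, already had human-table counts for 6 of the 7 genes. For every 100 pig-table counts of NOS3 the human table held 44.2 and 42.6 in the control libraries against 41.6, 42.8 and 41.2 in the biopsies, so the groups overlapped. ACE had 16.9 and 15.8 against 16.7, 17.8 and 16.1, AGTR1 17.5 and 17.6 against 15.4, 16.1 and 17.0, EDNRA 11.8 and 13.8 against 16.3, 14.6 and 12.5, and EDNRB 6.0 and 4.08 against 6.12, 5.88 and 7.03. EDN1 had few human-table counts, 4 and 1 in the controls, against 16, 22 and 15 in the 3 biopsies, and AGT had 0 and 0 against 3, 5 and 2. The AGT level in the biopsies therefore came with at most 0.221 human-table counts per 100 pig-table counts.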

How the data were processed

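Total RNA from homogenised kidney core biopsies was sequenced after ribosomal RNA depletion, per the labels' protocols. The deposited values were whole-number counts per gene symbol over a pig and a human genome, with no normalization by the authors left in them. The submitters' processing notes name hg38. For the aligner, counting tool, strand setting and annotation, the name was not given in the sources used here. Without strand, reads of a gene and of an antisense partner cannot be told apart. In the RefSeq table of Sscrofa11.1, which matched all 7 genes, ACE overlaps a long noncoding RNA gene.

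Tests were run with edgeR 4.0.16 in R 4.3.3 (TMM, filterByExpr with a minimum count of 10 and total of 15, robust quasi-likelihood test, Benjamini-Hochberg adjustment over all 12620 genes at 0.05). SE was taken as |log2 fold change| over the root of F. The comparison of the arms had 3 residual degrees of freedom, the slope 2 and each time 1. Alternatives were DESeq2 1.42.0, other scalings and filters, and leaving out each library. Poisson intervals (95%) cover counting error only. Genes alike were ranked on log2 CPM with a prior count of 2. The rule for named genes took the 7 genes, the other listed renin-angiotensin and endothelin genes in the table, up to 5 genes per direction of the other lists, and 3 genes of like profile per gene. The genes and lists were chosen with earlier results of these data known. Some genes that this rule names are not reported here.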

Additional observations from a re-analysis of the deposited data

Results flagged for a closer look

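A pair of results moved with time within the graft by the test of the slope over 12, 24 and 48 h, so that their difference from the controls was not the same at each time. PRCP had a log2 slope of 0.89 per 24 h (adjusted p = 0.0104) and NPR3 one of 0.83 (adjusted p = 0.0108, by edgeR's quasi-likelihood test in both cases). Both were above their 12 h level at 24 h and at 48 h. PRCP was 1 of 11 tested genes of its list and NPR3 1 of 13, and no gene of the other lists was called. Over all tested genes 3.34% were called higher by this slope, so the number called is no result about the lists. The NPR3 call was lost without the 48 h biopsy. In the human table, which the tests did not use, 2 of the 7 genes had more counts per 100 pig-table counts in all 3 biopsies than in either control. The totals of the tables moved the same way. The human total was 22.8 and 18.8 per 100 pig-table counts in the controls, against 31.2, 29 and 33.4 at 12, 24 and 48 h. Such a separation is therefore not particular to these genes, and the share of all genes that show it is not given here. For EDN1 the lowest biopsy had 8.65, against 6.15 and 1.64 in the controls, with 95% Poisson intervals of 4.94 to 14.0 in that biopsy and 1.68 to 15.8 and 0.0415 to 9.13 in the controls. For AGT the lowest biopsy had 0.155, against 0 in both controls, where 3 counts, the limit taken for a count of 0, come to 4.48 and 6.52 (95% Poisson upper limits of 5.51 and 8.02), so the difference was not detectable at this depth.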

How the results depend on the processing

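In the comparison of the arms, AGT and EDNRB (higher) and ACE (lower) passed in each of the 12 alternatives. For the 7 genes, all 49 values under the 7 scaling, filter and test alternatives kept direction and call. With a library left out, 2 to 6 genes were higher and 7 of 35 values lost the call, 6 of them on leaving out a control. All-gene calls then went from 2332 higher and 2402 lower to 738 and 1056 on leaving out control replicate 1, or 464 and 727 on leaving out the other. Within the graft, 1 of the 7 genes passed as higher with upper quartile scaling, 1 with no filter and 2 with DESeq2. These settings called 497 of 12620, 483 of 14149 and 580 of 14149 genes higher by the slope. With a library left out the counts were 0 to 2 higher and 0 to 1 lower, and without the 12, 24 or 48 h biopsy all-gene slope calls were 662 and 337, 1728 and 1037, and 941 and 585. Such a slope compares 2 single libraries, with its spread from the control pair alone. Upper quartile scaling moved the median log2 fold change of all genes by 0.11 at 48 h.

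Directions turned as follows, as log2 values. Slopes with a library left out ranged from -0.80 to 1.66 for AGT, -0.39 to 0.55 for ACE, -0.24 to 0.47 for EDN1, -0.0811 to 0.33 for EDNRB and -1.91 to 0.0747 for NOS3. Those of the peptidase genes ranged from -0.53 to 0.23 (ANPEP), -0.30 to 0.39 (ENPEP), -0.65 to 0.58 (MME), -0.0715 to 0.33 (LNPEP), -0.25 to 0.75 (NLN) and -0.23 to 0.0858 (THOP1). The slopes of the other genes ranged from -0.11 to 3.53 (AGTR2), -0.27 to 0.35 (MAS1), -0.28 to 0.0059 (ATP6AP2) and -0.62 to 2.17 (EDN2). Over all biopsies the ranges were -0.52 to 0.05 for AGTR2, -0.23 to 0.35 for LNPEP, -0.0915 to 0.10 for NLN and -0.56 to 0.0075 for EDN2. For EDNRA at 12 h the range was -0.12 to 0.21. Upper quartile scaling gave 0.031 for the THOP1 slope, and a stricter filter 0.0072 for that slope. BDKRB1 lost its call with no filter (adjusted p = 0.0526) and with DESeq2 (0.0636). The cause was not tested. A single biopsy against 1 control has no residual degrees of freedom, so those values had no test. No paired analysis was possible because the biopsies carry no replicate numbers.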
